A study of Mus musculus with 9 samples.

Results

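Liver sinusoidal endothelial cells line the fenestrated capillaries of the liver and clear waste macromolecules from the blood through a set of scavenger and endocytic receptors. These receptors bind ligands such as hyaluronan, collagen fragments, glycoproteins with exposed mannose, small immune complexes and modified lipoproteins, carry them into clathrin-coated vesicles and return to the surface while the cargo goes to lysosomes. The genes described here are 8 receptors of this kind, taken by name from the table of 52636 genes: the stabilins Stab1 and Stab2, the hyaluronan receptor Lyve1, the mannose receptor Mrc1, the Fc gamma receptor Fcgr2b, the class A scavenger receptor Msr1, the HDL receptor Scarb1 and the large lipoprotein receptor Lrp1. All 8 passed the filter on low counts and were among the 14583 genes tested.

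Polyadenylated RNA had been sequenced from mouse liver cells that excluded DAPI, lacked CD45, carried CD31 and had been stained in the living animal with an antibody to VE-cadherin, a gate for endothelium. There were 4 control libraries with the genotype label Wild Type and 5 with the label Erg and Fli1 double knockout, after 2 related ETS-family regulators of endothelium. The protocols give tamoxifen treatment and day 7 after it for both groups, and no label names the Cre line, the floxed alleles, or the age or sex of the mice. The question is which of these receptor transcripts depend on the label, and by how much.

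Libraries held 26791371 to 36401682 counts. Erg fell from 312 ± 17.8 (SD, n = 4) to 143 ± 10.9 CPM (SD, n = 5), CPM being counts scaled to a common library size with TMM factors, and Fli1 rose from 100.1 ± 8.01 to 147 ± 22.5 CPM (edgeR adjusted p = 2.61e-05 and 0.00636), so a loss of Fli1 transcript was not seen in gene-level counts and the 5 libraries are called libraries labelled knockout. All 12 pan-endothelial markers were detected, Cdh5, the gene of VE-cadherin, at 2190.3 ± 113 and 2158 ± 193 CPM. Their sum was 19250.2 to 21150.4 CPM in controls and 13383 to 18896 CPM in libraries labelled knockout, with no overlap, and 6 of 12 were lower and 0 higher (Flt1 2.90-fold, Robo4 2.46-fold, Tie1 2.02-fold, Cldn5 1.55-fold, Tek 1.52-fold and Esam 1.47-fold). The part of this difference in the lower receptors was not tested. Over all genes tested, 14.8% were called lower and 14.5% higher, the shares to read beside each marker count here and below. Markers of Kupffer cells and macrophages summed to 243 to 706 and 179.8 to 991 CPM, and none of 20 passed the test. Hepatocyte markers summed to 177 to 417 and 24.8 to 236 CPM (3 of 16 lower), stellate cell and fibroblast markers to 99.3 to 167 and 189.7 to 367 CPM (3 of 12 tested higher), and B cell markers to 3.78 to 20.3 and 15.3 to 49.4 CPM (0 of 9 tested called). Platelet and megakaryocyte markers summed to 177 to 272 and 679 to 1971 CPM (6 of 7 tested higher), most of it Itgb3 (185 ± 40.5 and 1010.0 ± 491 CPM). T and NK cell markers summed to 12.5 to 18.1 and 7.54 to 11.6 CPM, nearly all of it Lck, the sole gene of that list tested, which fell from 13.8 ± 2.72 to 8.55 ± 1.33 CPM (edgeR adjusted p = 0.0110). The lymphatic gene Ccl21a had 0 counts in all 9 libraries. Replicates 2 and 3 of the libraries labelled knockout stood apart on the second principal component of log2(CPM + 1), which held 18.1% of the variance, at 36.8 and 21.4 against -32.1 to -12.8 for the other 3 and -7.43 to 14.9 for the controls. Results that rest on these 2 libraries are given with and without them. They were picked from these same data, so p-values without them are descriptive.

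The receptors did not change as a block. Stab1, Msr1 and Fcgr2b fell, Stab2 and Mrc1 kept most of their level, Lyve1 was nearly lost in 3 of 5 libraries labelled knockout and near its control level in 1, and Lrp1 was scarce everywhere. In edgeR's quasi-likelihood test, 3 of 8 were lower and 0 higher, where 14.8% of all genes tested were lower and 14.5% higher. The median log2 fold change of the 8 was -0.60, beside 0.01 over all genes tested. In either direction 29.3% of all genes were called. Stab1 and Msr1, 2 of the 8, were called and at least 2-fold lower, where 5.59% of all genes were. The ranges of the groups were separate for the same 3 receptors, all lower, where 13.8% of all genes were separate and lower and 13.2% separate and higher. In sorted bulk samples, fewer cells of a type and less RNA per cell cannot be told apart. The 8 transcripts together made up 1.97% ± 0.0159 of all counts in controls and 1.25% ± 0.214 in libraries labelled knockout (SD).

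**Figure D1:**
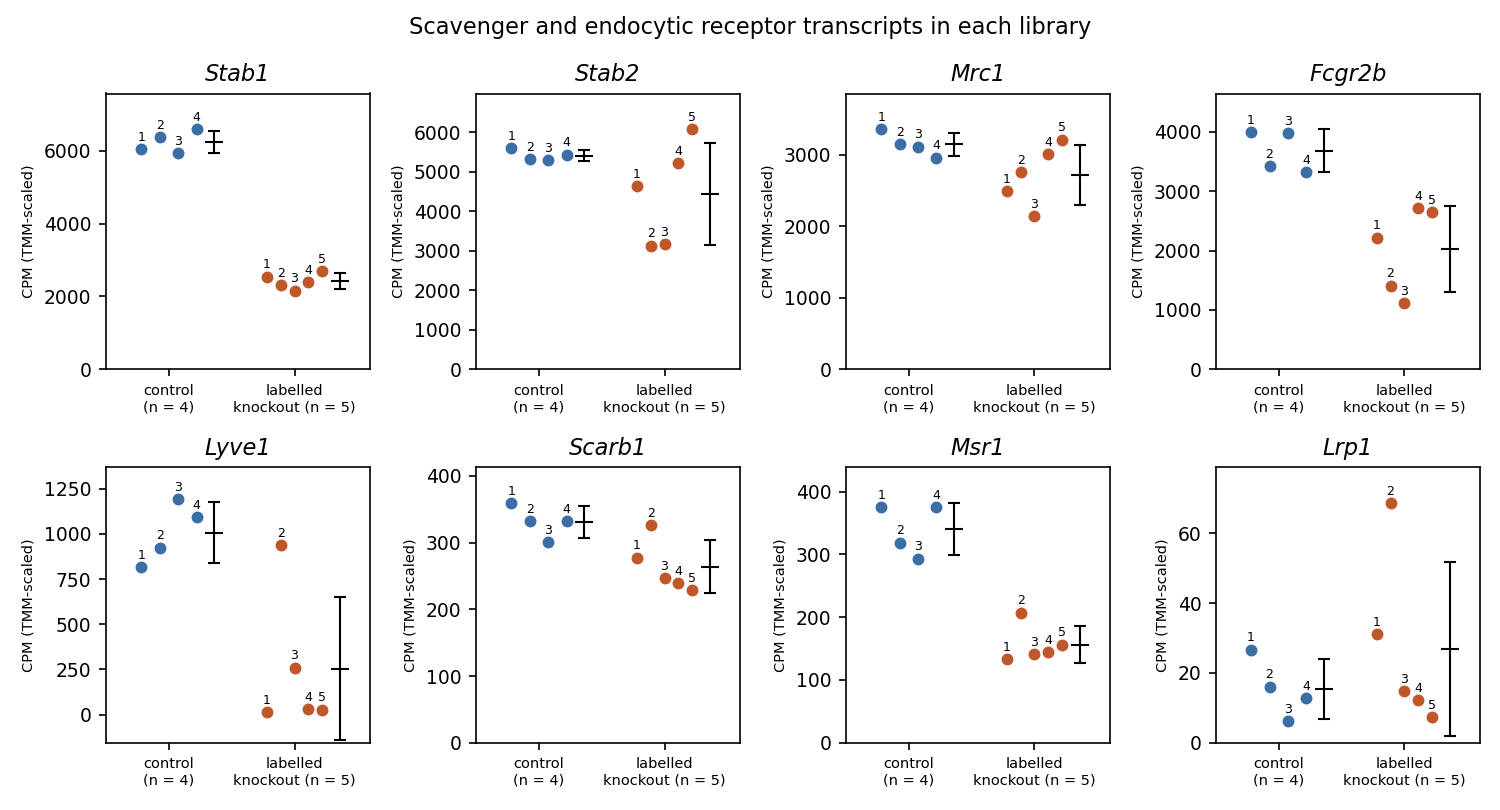
Each panel plots the TMM-scaled CPM of 1 receptor gene on a linear axis, with 1 point per library numbered by replicate and the mean ± SD in black (n = 4 controls, n = 5 labelled knockout). Stab1, Fcgr2b and Msr1 show no overlap between the groups, and Lyve1 of replicate 2 labelled knockout (937 CPM) sits among the controls.

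Stabilins are large receptors of the sinusoid with repeated fasciclin-like and EGF-like domains and a hyaluronan-binding link module. Stab1 (ENSMUSG00000042286, GRCm38 chromosome 14, 31139013 to 31168641, minus strand) takes up ligands such as modified LDL and the matrix protein SPARC, and Stab2 (ENSMUSG00000035459, chromosome 10, 86841198 to 87008025, minus strand) is the main hyaluronan clearance receptor. Both are protein-coding genes. The stretches before their RefSeq start sites (RefSeq, GRCm38.p6) are shown because the paralogs changed unequally between the groups and the label names ETS factors. That of Mrc1, which like Stab2 kept most of its level, is shown with them. The cause of the unequal change was not tested. Each is written 5′ to 3′ on the gene's own strand, and capitals mark GGAA, the core letters that ETS factors bind, or TTCC where the core lies on the other strand.
Stab1 (chr14:31168642-31168891, minus strand): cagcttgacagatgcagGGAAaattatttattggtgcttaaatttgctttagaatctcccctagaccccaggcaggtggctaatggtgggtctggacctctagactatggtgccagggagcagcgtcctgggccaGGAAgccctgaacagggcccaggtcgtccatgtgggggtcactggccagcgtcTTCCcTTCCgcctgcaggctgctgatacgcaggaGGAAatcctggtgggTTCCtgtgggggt
Stab2 (chr10:87008026-87008192, minus strand): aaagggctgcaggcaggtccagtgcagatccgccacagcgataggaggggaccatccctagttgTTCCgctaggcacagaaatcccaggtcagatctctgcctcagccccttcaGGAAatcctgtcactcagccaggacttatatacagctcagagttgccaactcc
Mrc1 (chr2:14229164-14229391, plus strand): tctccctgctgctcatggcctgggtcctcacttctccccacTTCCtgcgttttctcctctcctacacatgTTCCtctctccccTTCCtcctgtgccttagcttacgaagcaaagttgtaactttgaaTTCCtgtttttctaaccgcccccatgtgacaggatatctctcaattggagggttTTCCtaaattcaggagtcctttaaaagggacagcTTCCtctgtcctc
Windows of 300 bases, from 250 before to 50 after the start, were at hand for 5 of the 8 receptors, and bases that GENCODE annotates as exon were left out of the stretches above. The whole window held GGAA 6 times each at Stab1, Stab2 and Mrc1, 5 times at Fcgr2b and 4 at Lrp1, counting both strands. The median over all 32851 windows was 3, and 95.98% of them hold it. The stretches printed above hold it 6 times at Stab1, 2 at Stab2 and 6 at Mrc1. That of Stab2 has 167 bases, because the 83 bases next to its start site are annotated as exon. The longer match CAGGAAG, which contains the core, was present once at Stab1, starting 117 bases before the start site, and once on the other strand at Mrc1, where the match begins 210 bases before it, and 13.3% of all windows hold it. CCGGAAG, which also contains the core (8.86% of all windows), and the GATA factor letters AGATAA (11.2%) were in none of the 5 windows. So a receptor that fell and a receptor that did not pass the test both carry the longer letters, and a match describes these windows only.

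Stab1 lay at 6045, 6381, 5931 and 6587 CPM in control replicates 1 to 4. In replicates 1 to 5 labelled knockout it lay at 2547, 2310.0, 2157, 2394 and 2701 CPM. The 5 libraries were tightly grouped and all were far below every control. On the log2 scale Stab1 changed by -1.36 ± 0.12 (SE; edgeR adjusted p = 7.16e-05), which left 38.8% of the control mean. Every one of the 19 alternatives called it lower, 2.43-fold to 2.65-fold, at adjusted p from 4.11e-46 (DESeq2) to 0.00676 (edgeR with a replicate block). The opposite-strand gene Nt5dc2 shares 112 of 10288 exon bases with Stab1 and had 5069 counts in all libraries beside 1176163 for Stab1.

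Stab2 was steadier in controls and more spread in the other group. Controls lay at 5597, 5322, 5294 and 5436 CPM, and replicates 1 to 5 labelled knockout at 4644, 3129.8, 3160.1, 5226 and 6073 CPM. Replicates 2 and 3 were lowest, replicate 1 was also below every control, replicate 4 just below the controls and replicate 5 above them, so the groups overlapped. The fitted log2 difference was -0.28 ± 0.21 (SE, 95% interval -0.76 to 0.19; edgeR adjusted p = 0.347). Without replicates 2 and 3 it was -0.02 ± 0.12 (edgeR adjusted p = 0.925). The 2 stabilins were set against each other within libraries, which removes library scaling. The mean log2 ratio of Stab1 to Stab2 counts was 0.20 ± 0.08 in controls and -0.83 ± 0.33 in libraries labelled knockout (SD), so Stab1 lost its lead in counts in all 5. That difference of -1.03 had p = 0.00794 in an exact two-sided permutation test, the smallest that 126 splits allow. Adjusted over the 28 pairs of receptors, the exact permutation p was 0.0370. The receptors were chosen with earlier results of these data known, so both values are descriptive.

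Lyve1 (ENSMUSG00000030787, chromosome 7, 110850607 to 110863239, minus strand) encodes a small hyaluronan receptor with a link module, shared by sinusoidal and lymphatic endothelium. Its counts in controls were 24903, 29540, 37795 and 36973, which is 815, 923, 1191 and 1092 CPM. In replicates 1, 4 and 5 labelled knockout the counts were 411, 801 and 840, or 14.5, 29.5 and 28.1 CPM, in replicate 3 they were 9995 (259.7 CPM), and in replicate 2 they were 30375 (937 CPM). The first 3 lay far under every control, replicate 3 lay between, and replicate 2 lay inside the control range. With this spread the log2 fold change over all libraries was -1.99 ± 1.09 (SE, 95% interval -4.42 to 0.45) and did not pass edgeR's quasi-likelihood test (adjusted p = 0.200). Without replicate 2 it was -3.59 ± 0.90 (edgeR adjusted p = 0.0190), and without replicates 2 and 3 it was -5.38 ± 0.30 (edgeR adjusted p = 1.56e-05), 41.6-fold lower. Both libraries were singled out from these same data and are the highest for Lyve1 in their group. The p-values without them are therefore not a fair test of Lyve1. DESeq2 gave log2 -1.99 and set no p-value for Lyve1. With no library left out, limma-voom gave -3.68 ± 1.38 (SE, limma-voom adjusted p = 0.0715). A replicate block gave -3.40 ± 1.23 (SE, edgeR adjusted p = 0.112). The other scalings, count filters and sex term gave -2.04 to -1.92, so the size depended on the method. The lymphatic transcription factor gene Prox1, which lay at 3.64 ± 1.002 CPM in controls, rose to 8.44 ± 3.43 CPM in libraries labelled knockout (edgeR adjusted p = 0.0154). Of the 6 lymphatic markers tested, 3 were lower, and their sum went from 4304 to 4840 CPM down to 1978 to 2236 CPM. Nearly all of that sum was Flt4 (3509 ± 302 to 1546 ± 111 CPM), which is also in the list of sinusoidal genes, and Nrp2 (969 ± 122 to 522 ± 106 CPM). Ccl21a was at 0 throughout. Their part in the level of Lyve1 was not tested.

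**Figure D2:**
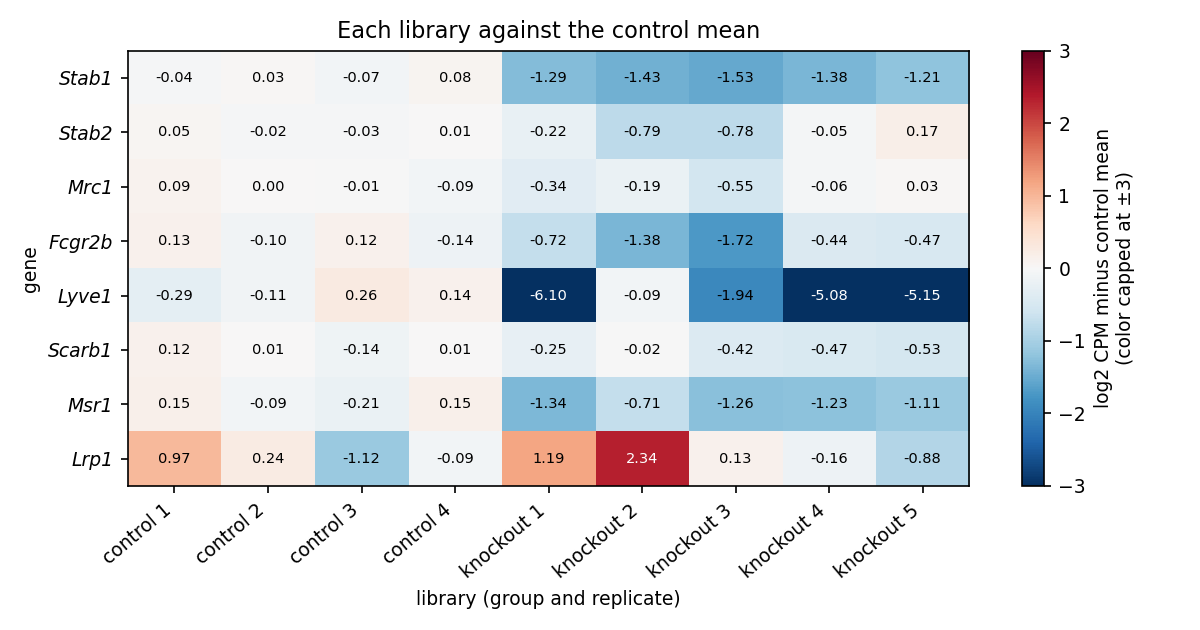
The map shows, for each receptor (rows) and library (columns, by group and replicate), the log2 CPM minus the control mean of log2 CPM, with color capped at ±3. Stab1 is between -1.53 and -1.21 in all 5 libraries labelled knockout, while Lyve1 runs from -6.10 in replicate 1 to -0.09 in replicate 2.

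Replicates 2 and 3 labelled knockout thus stood lowest for Stab2 and Fcgr2b but highest for Lyve1 within their group. Their summed pan-endothelial markers were also lowest, at 13383 and 13976 CPM, where replicates 1, 4 and 5 lay between 18094 and 18896 CPM. The part of this in the levels of Stab2 and Fcgr2b was not tested. Of 17 other genes of hyaluronan turnover and receptor ligands tested, 4 were lower and 5 higher, beside 14.8% and 14.5% of all genes. Their median log2 fold change was -0.30. Hyal2, a hyaluronidase that acts at the cell surface, fell from 404 ± 60.7 to 129.7 ± 36.7 CPM, Hyal1, the lysosomal hyaluronidase, from 14.7 ± 2.98 to 8.06 ± 3.11 CPM, and Cemip2, reported as a cell-surface hyaluronidase, from 1017 ± 103 to 753 ± 114 CPM. The fourth gene lower was Gas6, a growth arrest-specific ligand that bridges phosphatidylserine to TAM receptors, 10.5-fold. All 4 had edgeR adjusted p between 0.000534 and 0.0395. Thbs1, Plat and A2m, secreted proteins that LRP1 clears alone or in complexes, were among those higher, from control means of 0.766 to 2.71 CPM. The count of lower genes was 2 without control replicate 2, 3 or 4 and without replicate 2, 3 or both labelled knockout.

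Mrc1 (ENSMUSG00000026712, chromosome 2, 14229392 to 14332057, plus strand) encodes the mannose receptor, which takes up glycoproteins, lysosomal enzymes and collagen chains. It lay at 3352, 3151, 3113 and 2960.0 CPM in controls and at 2487, 2751, 2141, 3006 and 3208 CPM in replicates 1 to 5 labelled knockout. Replicates 1, 2 and 3 of these were under every control and the others inside the control range. Mrc1 differed by -0.21 ± 0.14 on the log2 scale (SE, 95% interval -0.53 to 0.11; edgeR adjusted p = 0.296). None of the 19 alternatives called it. Relative to Mrc1 in the same libraries, Stab1 was lower by a difference of log2 ratio of -1.14. The exact permutation p was 0.00794, and 0.0370 adjusted over 28 pairs, descriptive as for Stab1 and Stab2.

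Fcgr2b (ENSMUSG00000026656, chromosome 1, 170958617 to 170976547, minus strand) encodes the inhibitory Fc gamma receptor, which in the sinusoid takes up small immune complexes. Controls lay at 4001, 3423, 3983 and 3321 CPM. Replicates 1 to 5 labelled knockout lay at 2220.2, 1412, 1114, 2712 and 2646 CPM, all below the controls and with replicates 2 and 3 lowest. Fcgr2b fell by a log2 difference of -0.87 ± 0.26 (SE; edgeR adjusted p = 0.0322). That call was close to the threshold: it ended when any single control was left out (edgeR adjusted p = 0.0808, 0.0631, 0.0794 and 0.0520 for replicates 1 to 4), and when replicate 1 or 2 labelled knockout was (0.0516 and 0.0557). Without replicates 2 and 3 the fall was smaller and less variable, 1.45-fold in place of 1.82-fold (edgeR adjusted p = 0.0103). Fcgr2b is also a gene of B cells and macrophages, whose summed markers lay at the levels given above, at most 49.4 and 991 CPM in any library. A sum of markers does not give the Fcgr2b RNA of those cells. Their part in the level of Fcgr2b was not tested.

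Msr1 (ENSMUSG00000025044, chromosome 8, 39581685 to 39642673, minus strand) encodes scavenger receptor A, a trimer that binds modified lipoproteins and polyanions. It lay at 375, 318, 293 and 375 CPM in controls and at 133, 207, 141, 145 and 157 CPM in replicates 1 to 5 labelled knockout. Every library labelled knockout was below every control, replicate 2 being the highest of the 5. Msr1 was 2.18-fold lower (log2 -1.12 ± 0.14 SE; edgeR adjusted p = 4.35e-04), and all 19 alternatives called it. Macrophages make Msr1 as well, and their summed markers were highest in the same replicate 2 (991 CPM) and overlapped between groups. The part of these markers in the level of Msr1 was not tested.

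Scarb1 (ENSMUSG00000037936, chromosome 5, 125277087 to 125341094, minus strand) encodes SR-BI, which moves cholesteryl esters from HDL into cells. Controls lay at 359, 332, 301 and 332 CPM, and replicates 1 to 5 labelled knockout at 278, 327, 247, 239 and 229 CPM. Only replicate 2 of these reached the control range. Its log2 difference of -0.33 ± 0.12 (SE, 95% interval -0.59 to -0.07; edgeR adjusted p = 0.0585) fell just short of the threshold. It passed in DESeq2 (adjusted p = 0.0376), and in edgeR without replicate 2 labelled knockout (log2 -0.41, adjusted p = 0.0118) or without replicates 2 and 3 (-0.41, adjusted p = 0.0169). Hepatocytes also make Scarb1. Their summed markers were 417, 272, 231 and 177 CPM in controls and 147.7, 112, 123, 236 and 24.8 CPM in replicates 1 to 5 labelled knockout, below every control in all of these but replicate 4. The part of hepatocyte RNA in Scarb1 was not tested.

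Lrp1 (ENSMUSG00000040249, chromosome 10, 127538161 to 127621148, minus strand) encodes a giant endocytic receptor for remnant lipoproteins and protease-inhibitor complexes, abundant in hepatocytes, macrophages and fibroblasts. It was scarce in these sorted cells, at 26.7, 16.1, 6.27 and 12.8 CPM in controls and 31.1, 68.7, 14.9, 12.2 and 7.38 CPM in replicates 1 to 5 labelled knockout. Replicates 1 and 2 of these lay above every control and the other 3 inside the control range. Lrp1 differed by 0.80 ± 0.65 on the log2 scale (SE, 95% interval -0.66 to 2.26; edgeR adjusted p = 0.388), and by 0.09 without replicate 2 (edgeR adjusted p = 0.915). With a term for sex, read from Xist and Ddx3y (3 male and 1 female controls, 2 male and 3 female libraries labelled knockout), it was called higher, 2.33-fold (log2 1.22, edgeR adjusted p = 0.0305). The summed Kupffer cell and macrophage markers of the same libraries were 706, 429, 243 and 417 CPM in controls and 561, 991, 189, 336 and 179.8 CPM in the others. Lrp1 was highest in the library with the highest macrophage sum and lowest, in each group, in the library with the lowest. Every male library also had a higher macrophage sum than every female library, so the sex term and macrophage markers cannot be told apart here. The part of these markers in the level of Lrp1 was not tested.

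**Figure D3:**
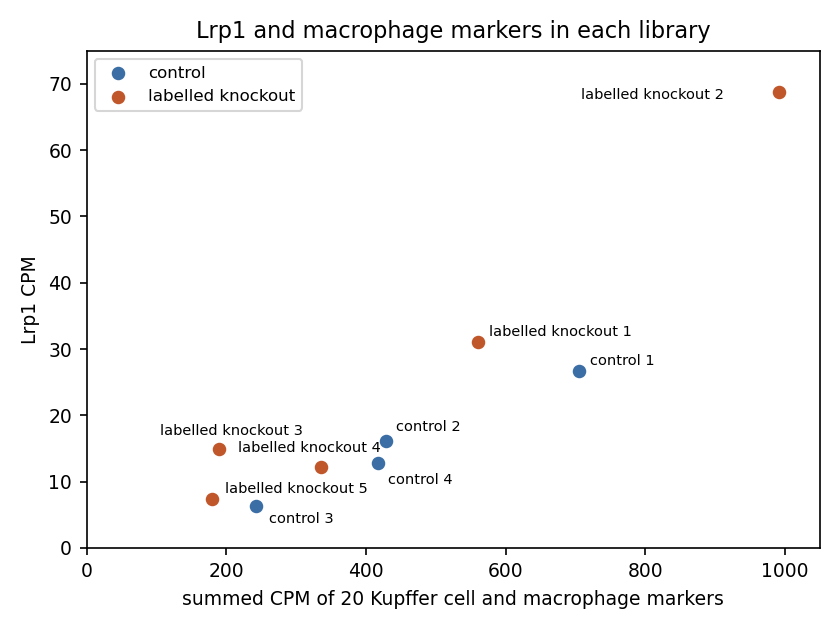
Each point is 1 library, with the summed CPM of 20 Kupffer cell and macrophage markers on the x axis and Lrp1 CPM on the y axis, colored by group. Replicate 2 labelled knockout lies at 991 and 68.7 CPM, and the lowest of each group at 243 and 6.27 CPM (control 3) and 179.8 and 7.38 CPM (labelled knockout 5).

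Levels of different genes were compared per kilobase of annotated exon (CPM divided by exon length). In controls Fcgr2b (636 ± 62.2), Stab2 (618 ± 15.7) and Stab1 (606 ± 29.4) led and did not differ beyond their SDs, followed by Mrc1 (493 ± 25.4), Lyve1 (344 ± 57.7), Msr1 (53.7 ± 6.53), Scarb1 (38.9 ± 2.82) and Lrp1 (0.872 ± 0.481). In libraries labelled knockout the order was Stab2 (508 ± 148), Mrc1 (427 ± 66.1), Fcgr2b (349 ± 125), Stab1 (235 ± 20.4), Lyve1 (87.0 ± 136), Scarb1 (31.0 ± 4.65), Msr1 (24.7 ± 4.64) and Lrp1 (1.52 ± 1.41). In that order the mean ± SD ranges of all neighbours overlapped except those of Msr1 and Lrp1. By its mean, Stab1 was above Mrc1 in controls and below it in libraries labelled knockout.

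**Figure D4:**
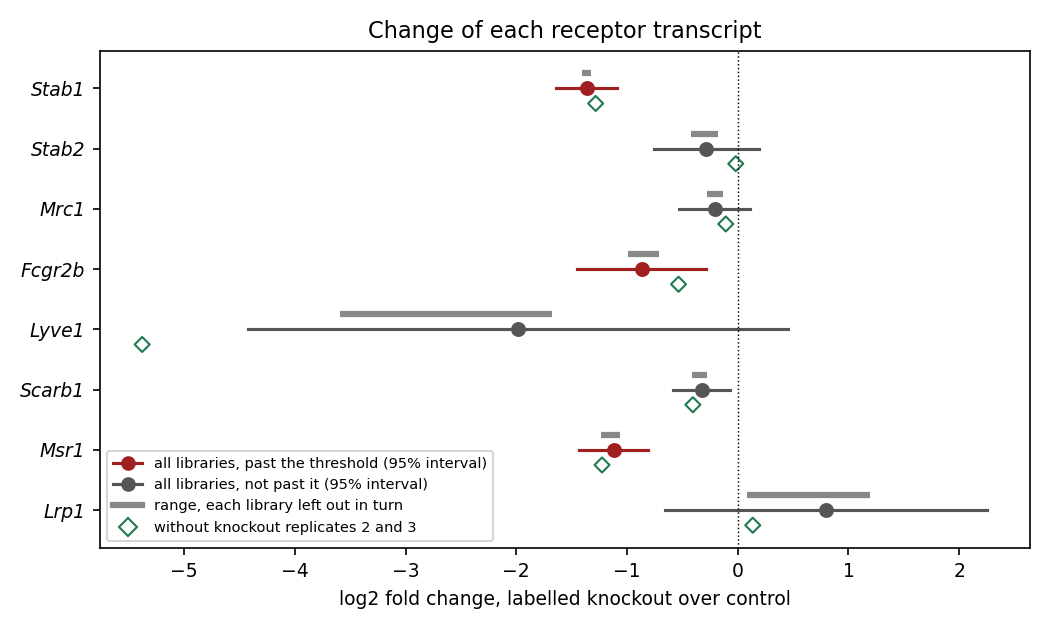
For each receptor the circle and line give the edgeR log2 fold change and its 95% interval (red past the threshold, gray not), the gray bar the range when each library is left out in turn, and the open diamond the value without replicates 2 and 3 labelled knockout. Stab1 and Msr1 hardly move, and Lyve1 goes from -1.99 to -5.38.

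All 28 ratios between receptors were tested, and 6 differed between the groups after adjustment. Each of the 6 had p = 0.00794 in the exact permutation test and 0.0370 adjusted. The receptors were chosen with earlier results known and the adjustment covers these 28 pairs alone, so these p-values are descriptive. Each of the 6 sets a called receptor against an uncalled receptor, so they are not separate results. Stab1 fell relative to Stab2, Mrc1 and Scarb1 (differences of log2 ratio -1.03, -1.14 and -1.03). Fcgr2b fell relative to Stab2 (the ratio of Stab2 to Fcgr2b was higher by 0.61), and Msr1 fell relative to Mrc1 and Scarb1 (ratios higher by 0.91 and 0.80). Among the 3 receptors that fell, Stab1 to Msr1 differed by -0.24 (exact permutation p = 0.183), Stab1 to Fcgr2b by -0.42 (0.159) and Fcgr2b to Msr1 by 0.19 (0.611). Ratios with Lyve1 moved most, by up to -4.19 for Lyve1 to Lrp1 (exact permutation p = 0.0159, 0.0635 adjusted), and none passed. With any 1 library left out, 0 of 28 pairs passed after adjustment, where the smallest exact permutation p is 0.0179 or 0.0286, and the 6 ratios kept their sign. Without replicates 2 and 3 labelled knockout 0 passed as well, 16 pairs having the smallest exact permutation p of 0.0286, which adjusts to 0.05.

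**Figure D5:**
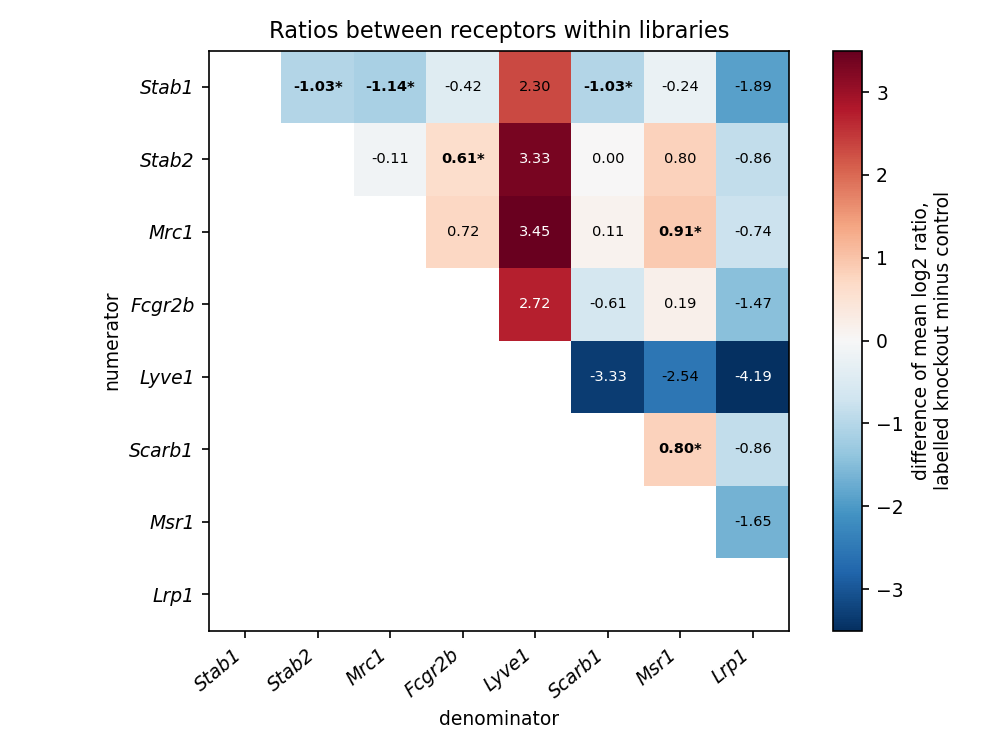
Each cell gives the mean log2 ratio of counts of the row gene to the column gene in libraries labelled knockout minus that in controls, over 28 pairs, and a star and bold type mark the 6 with an adjusted exact permutation p of 0.0370. The 3 starred cells of Stab1 are negative, between -1.14 and -1.03.

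Genes nearest in pattern were found among 8675 candidates as those with the smallest root mean square difference over 9 libraries in log2 CPM minus the control mean. For Stab1 they were Arrb1, a beta-arrestin that links receptors to clathrin (0.1096, log2 fold change -1.24), Klhl5 (0.126) and Dlc1, a GTPase-activating protein (0.128). For Fcgr2b they were Slc29a1, a nucleoside transporter (0.0957, log2 fold change -0.94), Sspn (0.108) and Rfk, riboflavin kinase (0.108). For Msr1 they were Micall1, which acts in endocytic recycling (0.134, log2 fold change -0.998), Ubxn2a (0.143) and the kinase gene Dmpk (0.143).

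Other scavenger and endocytic receptors included 9 lower and 5 higher of 34 tested, beside 14.8% and 14.5% of all genes tested. The median log2 fold change of these receptors was -0.18. Among those lower were Scarf1, an endothelial receptor for modified LDL (304 ± 16.1 to 180.3 ± 4.86 CPM) and the lipoprotein receptor relatives Lrp4 (7.92 ± 1.79 to 1.57 ± 0.776 CPM) and Lrp5 (589 ± 65.1 to 438 ± 34.6 CPM). Among those higher were Scarf2, the paralog of Scarf1 (7.05 ± 3.78 to 48.2 ± 21.1 CPM), the oxidised LDL receptor gene Olr1 (1.25 ± 0.673 to 5.87 ± 2.61 CPM), the sorting receptor gene Sorl1 (0.824 ± 0.220 to 2.30 ± 0.665 CPM) and the transferrin receptor gene Tfrc (3.81 ± 1.17 to 11.5 ± 7.39 CPM). These 7 genes had edgeR adjusted p from 7.34e-05 to 0.0216. Scarf1 and Scarf2 thus went opposite ways, from very different levels. The count of lower genes was 5 without a count filter, and 4 or 5 when control replicate 1, 2 or 3 was left out, or replicate 1 or 5 labelled knockout. That of higher genes was 3 without a count filter and without control replicate 2 or 3.

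Coat and adaptor genes gather receptors into clathrin-coated pits. They included 8 lower and 5 higher of 30 tested, beside 14.8% and 14.5% of all genes tested. Their median log2 fold change was 0.01. The adaptor gene Dab2, which recruits lipoprotein receptors among others, fell from 1192 ± 163 to 400.2 ± 127 CPM. Clathrin light chain Clta fell 1.56-fold, the AP2 subunit Ap2a2 1.58-fold and the Golgi adaptor Gga2 2.27-fold. Picalm, a clathrin assembly protein, rose from 699 ± 46.9 to 1088 ± 191 CPM, Epn2 from 153 ± 12.1 to 234 ± 49.8 CPM and Synj1 from 97.0 ± 4.28 to 128 ± 22.6 CPM. These had edgeR adjusted p between 5.84e-05 and 0.0349. The LRP1 chaperone gene Lrpap1 (105 ± 12.8 and 109 ± 24.4 CPM) and the stabilin and LRP1 adaptor gene Gulp1 (3.03 ± 0.637 and 2.81 ± 0.936 CPM) were not called. The count of higher genes was 3 without any 1 of the controls.

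Endosome genes included 4 lower and 6 higher of 30 tested, beside 14.8% and 14.5% of all genes tested. Their median log2 fold change was 0.00, and most of the called changes were small. The sorting nexin genes Snx2 (326 ± 20.4 to 168 ± 30.2 CPM) and Snx5 (413 ± 23.9 to 653 ± 36.1 CPM) went opposite ways, and Npc1, which exports cholesterol from late endosomes, rose from 65.3 ± 2.33 to 93.9 ± 7.46 CPM. The recycling GTPase gene Rab4a rose 2.14-fold from 6.08 ± 0.696 CPM. Retromer genes Vps29 and Vps26a fell 1.22-fold and 1.19-fold, the tether gene Eea1 fell 1.20-fold and Stam, a sorting adaptor, rose 1.34-fold. The lower count was 1 without replicates 2 and 3 labelled knockout and 2 without control replicate 3. Of the 25 other sinusoidal genes tested, 12 were lower and 2 higher, beside 14.8% and 14.5% of all genes tested. Their median log2 fold change was -0.69, and 3 of the 8 receptors were lower. The higher count of the sinusoidal genes was 1 without control replicate 2, 3 or 4 and without replicate 1, 4 or 5 labelled knockout.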

How the data were processed

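Unnormalized gene counts were deposited by the authors in a single table, whose 52636 Ensembl rows and 9 library columns were all read. The submitters' processing notes list GRCm38 as the build, with STAR 2.7.6a and FastQC 0.11.5. How reads were counted, against which annotation and on which strand, is not stated. Per the labels' protocols, either an unstranded or a stranded kit was used, and which library had which is not stated. Groups and replicate numbers came from the sample titles, and columns were matched through the sample descriptions. Nothing in the labels says that each library came from its own animal, so p-values reflect the spread among these libraries only, and some of it may be technical. Chi-square per degree of freedom between replicates ran from 20.3 to 182, well above counting noise.

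Symbols, coordinates and exon lengths came from GENCODE M21 on GRCm38 (52489 rows with a symbol, 147 without). The low-count filter was filterByExpr (at least 10 counts by group, 15 in total) and left 14583 genes. The test was the two-sided quasi-likelihood F test of edgeR 4.0.16 (R 4.3.3; robust glmQLFit, TMM factors, label as the sole term), and p-values were adjusted by Benjamini-Hochberg across the 14583, called under 0.05. A standard error is the log2 fold change over the square root of F, and 95% intervals use that error. Libraries held 26791371 to 36401682 counts, where 1 count was worth 0.0260 to 0.0368 CPM. Ratios between 2 receptors were tested as log2 counts (0.5 added) with an exact two-sided permutation test over libraries. Alternatives were DESeq2 1.42.0, limma-voom (limma 3.58.1), 3 other scalings, 2 other count filters, a replicate block, a sex term (from Xist and Ddx3y), each library left out, and replicates 2 and 3 of the knockout label left out together. A simulation of this comparison with 14339 genes gave edgeR calls for 44 of 100 genes with a 2-fold change, 83 of 100 with a 4-fold change and 6 of 14144 unchanged genes. Only 100 genes of each size were changed, where 4271 of 14583 were called in the data. Recovery in the data may therefore differ.

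The receptors and all gene lists were chosen with earlier results of these data known. Genes named are the 8 receptors, Erg and Fli1, up to 4 called genes per direction of each list by smallest p, marker genes by level, and the 3 genes nearest in pattern to each called receptor (mean of at least 10 CPM). A few genes that this rule selects are not reported here. Genes nearest to the other receptors were named after their values were seen.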

Additional observations from a re-analysis of the deposited data

Results flagged for a closer look

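Lyve1 in replicate 2 labelled knockout, at 937 CPM, was far from the other 4 libraries of its group, which lay between 14.5 and 259.7 CPM. The gap was 0.734 of the group's range in linear CPM, above Dixon's 95% critical value for 5 samples. As log2 CPM minus the control mean, replicate 3 (-1.94) lay nearer to replicate 2 (-0.09) than to replicates 1, 4 and 5 (-6.10 to -5.08). Neither this flag nor the next was computed on log2 values, so both hold for linear CPM only. The summed platelet and megakaryocyte markers were also farthest in replicate 2 labelled knockout, at 1971 CPM against 679 to 1039 CPM in the other 4 (0.721 of the range). As given above, most of that sum was the single gene Itgb3 in the group means. In 40 groups examined, chance flags about 1 in 20, and the part of the platelet markers in the Lyve1 level was not tested.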

How the results depend on the processing

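The calls of Stab1 and Msr1 held in all 19 alternatives run, Stab2 and Mrc1 were called in none, and no receptor changed direction. With a replicate block, Fcgr2b was no longer called (log2 -1.06, edgeR adjusted p = 0.0533), genes called fell from 4271 to 2671, and called genes over the 5 lists from 60 to 34. Same-numbered libraries did not deviate together (correlations 0.310, -0.044, -0.013 and -0.348), and only number 1 correlated best with its own number, so the numbers were not taken as pairs. Lists under the block gave 2 higher and 3 lower (other receptors), 2 higher (adaptors), 1 lower (endosome), 2 lower (hyaluronan and ligands) and 0 higher (sinusoidal). Without replicates 2 and 3 labelled knockout, picked from these same data, 5 receptors were called in place of 3, Lyve1 at log2 -5.38 and Scarb1 at -0.41 passing. Ratios past the threshold went from 6 to 0, where the smallest exact permutation p of 0.0286 adjusts to 0.05. Scarb1 also passed in DESeq2 (-0.33), and Lrp1 with a sex term (1.22, edgeR adjusted p = 0.0305). With that term, which cannot be told apart from the macrophage markers, adaptors had 3 higher and other receptors 4 lower. Leaving out 1 library gave log2 values of -0.99 to -0.71 for Fcgr2b, -3.59 to -1.68 for Lyve1 and -0.41 to -0.28 for Scarb1. It left 0 ratios past the threshold, where the exact permutation p can be no smaller than 0.0179 or 0.0286. A filter of 5 CPM left 3 higher other receptors, limma-voom 3 higher ligands and no count filter 2 lower endosome genes. The cause of these differences was not tested. Depth limits Lrp1 little (199 counts or more per library).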

Other observations

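The genes nearest in pattern to the receptors that were not called were named after their values were seen. For Lrp1 they were Cybb, Mpeg1 and Cd5l, all macrophage genes, at root mean square differences of 0.344, 0.393 and 0.416 over 9 libraries. Cd5l lay at 179 CPM in replicate 2 labelled knockout and between 24.2 and 104.7 CPM in the other 4. For Stab2 they were Nacc2 (0.0804), Slc9a3r1 (0.101) and Nrp1, a VEGF and semaphorin co-receptor (0.107), which lay at 764 and 837 CPM in replicates 2 and 3 labelled knockout and between 1258 and 1329.8 CPM in the others.

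No gene came close to Lyve1, whose nearest was Flrt1 at 1.02. Inhbb, an activin subunit gene (1.03), lay at 203 CPM in replicate 2 labelled knockout, above its control maximum of 169.6 CPM, and at 4.59 to 22.9 CPM in the other 4. Btnl9 (1.16), from a control mean of 712 CPM, lay at 114.8 and 63.5 CPM in replicates 2 and 3 and at 6.68 to 11.3 CPM in the other 3.

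By Xist and Ddx3y the controls were 3 male and 1 female and the libraries labelled knockout 2 male and 3 female. The male minus female term was log2 1.91 for Lrp1 (edgeR adjusted p = 0.146) and 0.28 for Scarb1 (edgeR adjusted p = 0.583). Macrophage marker sums were higher in every male library than in every female library, so this term cannot be told apart from them.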
